A study of Homo sapiens with 4 samples.

Results

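The 38 listed HOX genes of the HOXA, HOXB, HOXC and HOXD clusters were examined in the list of new MBD-seq peaks of HEK293 cells treated with wild-type Ab-3A3L. They were chosen by name, as 38 of 20163 protein-coding genes. The promoter was the window of 1000 bp upstream and 1000 bp downstream of the canonical start site in GENCODE 44, lifted to hg19, and it was called when a new peak overlapped it by at least 1 bp. A new peak was found at 15 of the 38 HOX promoters (39.5%), beside 41.6% of all protein-coding promoters. The HOX promoters were rich in CpGs, and among promoters with at least 100 CpGs the shares were 11 of 25 for HOX genes (44%) and 70.5% for all protein-coding genes. In 12 of the 15 genes the summit of the highest-fold peak fell in the gene's own coding sequence, beside 16.5% of all called promoters.

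HEK293, an immortal line from human embryonic kidney, was used for 4 libraries, 1 for each condition. Untreated cells were compared with cells that were transiently transfected with dCas9-SunTag (dCS), an sgRNA to the ISG15 promoter and Ab-3A3L. Ab-3A3L is an antibody fragment against the SunTag peptide fused to the catalytic part of DNMT3A and to the C-terminal part of DNMT3L, and DNMT3A was the wild type or carried the K844E or the R887E exchange. The transfected cells were collected after 3 days and sorted for the fluorescent markers of all plasmids, so only cells that had taken up every vector were kept, and expression was transient. Methylated fragments were pulled down with GST-MBD2 and sequenced. Only the list of the wild-type condition, with 12864 new peaks against untreated cells, is described here, and the libraries of the other conditions were not analysed. No condition has a replicate, so no test was possible, and the values below describe 1 library. A peak list carries no expression values, so the identity of the cells could not be checked against marker genes.

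HOX genes encode homeodomain transcription factors that give cells their position along the body axis. They stand in clusters in the order in which they are used from head to tail, so genes with low paralogue numbers act in the hindbrain and neck and those with high numbers in the trunk end, the distal limbs and the genital tract. Polycomb and Trithorax complexes keep the clusters silent or active, retinoic acid receptors and CDX factors act upstream, and PBX, MEIS and PKNOX proteins bind DNA together with the HOX proteins.

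Reference sequences from under the highest-fold peak of each cluster are printed below, and they do not show which CpGs were methylated. Each is a stretch of 200 bp around or beside the summit, read from hg19 on the plus strand, with every CpG in capitals. The stretch at HOXA13 (chr7:27239035-27239234) lies in coding exon 1 and holds 30 CpGs. The stretch at HOXB2 (chr17:46620563-46620762) lies in coding exon 2, outside the promoter window, and holds 27 CpGs. The stretch at HOXC4 (chr12:54447920-54448119) lies in coding exon 1 and holds 18 CpGs. The stretch at the HOXD cluster (chr2:177042774-177042973) lies in exon 1 of the lncRNA HAGLROS, in an intron of the lncRNA HAGLR, and holds 29 CpGs.
HOXA13 coding exon 1: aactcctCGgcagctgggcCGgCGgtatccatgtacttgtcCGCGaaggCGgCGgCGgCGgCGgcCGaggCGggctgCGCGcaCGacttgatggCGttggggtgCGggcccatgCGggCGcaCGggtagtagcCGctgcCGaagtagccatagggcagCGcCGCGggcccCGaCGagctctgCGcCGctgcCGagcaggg
HOXB2 coding exon 2: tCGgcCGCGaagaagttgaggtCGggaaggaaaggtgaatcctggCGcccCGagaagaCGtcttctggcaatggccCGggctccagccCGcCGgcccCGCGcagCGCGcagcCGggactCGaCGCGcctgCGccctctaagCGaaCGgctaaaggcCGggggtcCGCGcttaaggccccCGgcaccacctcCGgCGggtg
HOXC4 coding exon 1: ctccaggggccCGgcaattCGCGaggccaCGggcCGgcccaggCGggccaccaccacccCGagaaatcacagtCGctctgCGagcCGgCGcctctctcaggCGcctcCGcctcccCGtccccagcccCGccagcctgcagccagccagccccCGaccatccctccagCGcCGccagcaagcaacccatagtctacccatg
HAGLROS exon 1: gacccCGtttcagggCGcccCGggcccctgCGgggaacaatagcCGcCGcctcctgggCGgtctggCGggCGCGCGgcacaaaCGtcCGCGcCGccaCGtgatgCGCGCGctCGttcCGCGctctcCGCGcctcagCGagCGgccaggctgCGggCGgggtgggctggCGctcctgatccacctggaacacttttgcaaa

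The neighbours HOXD8 and HOXD9 are shown for contrast. The stretch at HOXD8 (chr2:176994160-176994359) lies just upstream of its start site, in an intron of HOXD-AS2, and holds the summit of a new peak. The 200 bp immediately upstream of the start site of HOXD9 (chr2:176987247-176987446) had no new peak. The stretches at HOXD8 and HOXD9 hold 14 and 15 CpGs, at a GC content of 68.5% and 59%. The whole promoters hold 219 and 188 CpGs. What sets this pair apart was not tested.
HOXD8 upstream, with a new peak: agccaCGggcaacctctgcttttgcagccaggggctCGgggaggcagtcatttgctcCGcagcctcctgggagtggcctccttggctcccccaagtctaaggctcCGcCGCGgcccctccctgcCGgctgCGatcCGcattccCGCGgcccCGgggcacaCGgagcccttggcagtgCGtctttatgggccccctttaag
HOXD9 upstream, without a new peak: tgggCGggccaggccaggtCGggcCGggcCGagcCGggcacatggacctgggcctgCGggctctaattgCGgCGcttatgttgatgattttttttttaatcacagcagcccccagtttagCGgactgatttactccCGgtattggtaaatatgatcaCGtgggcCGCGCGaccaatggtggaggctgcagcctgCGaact

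For each peak the list gives a fold, which is the enrichment of fragments at the summit over a background. The number of fragments and the background rate, in fragments, were worked back from each peak's fold and p-value. The background rate is the larger of a genome-wide rate (0.611 fragments) and a local rate; that the local rate stands for the untreated cells is an inference from the values. Intervals given in brackets are 95% Poisson intervals of the fragments, expressed as folds with the background rate taken as fixed. They cover the counting error of the fragments only, not that of the background. They also do not allow for the summit being the highest point of its peak. A promoter without a new peak is not thereby unmethylated: gain below the threshold, no gain, and methylation already present in untreated cells cannot be told apart in this list.

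Of the HOX genes of paralogue groups 1 to 4, 3 of 11 had a new peak at the promoter (27.3%), beside 41.6% of all protein-coding promoters. The median number of CpGs at these 11 promoters was 86. Of all protein-coding promoters with 50 to 99 CpGs, 28.9% were called. HOXC4, which acts in the neck region, had the highest fold of all members, 14.3 [9.18 to 21.3], from 22 fragments over 0.611. This was the only HOX promoter whose background was the genome-wide rate. Its promoter held 75 CpGs, of which 34.7% lay under the peak. HOXB2, a gene of hindbrain segments, had a fold of 5.56 [3.46 to 8.52] from 19 fragments over 2.60, at a promoter of 60 CpGs. HOXD4, a retinoic acid responsive gene of the hindbrain, had a fold of 4.95 [2.80 to 8.22] from 13 fragments over 1.83. With the backgrounds taken as fixed, the interval of HOXC4 lay above those of HOXB2 and HOXD4. The promoters of HOXB1 and HOXD1, of HOXA2, of HOXA3, HOXB3 and HOXD3, and of HOXA4 and HOXB4 had no new peak. Among them HOXD1 had 174 CpGs and HOXA4 148, more than any of the 3 called promoters of these groups.

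In groups 5 to 8, 5 of 11 promoters had a new peak (45.5%), beside 41.6% of all protein-coding promoters. Their median number of CpGs was 106, and 65.6% of all protein-coding promoters with 100 to 149 CpGs were called. HOXD8 had a fold of 7.28 [4.68 to 10.9] from 22 fragments over 2.16, and a second peak with a fold of 5.18. Its promoter held 219 CpGs, the most of all members. HOXB7 had a fold of 6.98 [4.78 to 9.87] from 30 fragments over 3.44, and a second peak with a fold of 4.90. HOXC5 had a fold of 4.51 [3.05 to 6.45] from 28 fragments over 5.43. HOXA5, which is needed for lung and neck development, had a fold of 4.26 [2.88 to 6.09] from 28 fragments over 5.81. HOXB8, known from blood cell progenitors, had the lowest fold of the 15, 3.93 [2.95 to 5.13], but the most fragments, 52, over a background of 12.5. The order by fold and the order by fragments thus differed, and the intervals of neighbours in the order by fold overlapped. No new peak was found at HOXA6, HOXB6 and HOXC6, at HOXA7, at HOXC8 or at HOXB5. HOXB6 and HOXC6, with 49 and 41 CpGs, were among the 3 members with fewer than 50 CpGs; the other was HOXB3 with 35.

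In groups 9 to 13, 7 of 16 promoters had a new peak (43.8%), beside 41.6% of all protein-coding promoters. Their median number of CpGs was 138.5, and 65.6% of all protein-coding promoters with 100 to 149 CpGs were called. HOXC13, a regulator of hair keratin genes, had a fold of 10.4 [7.32 to 14.5] from 34 fragments over 2.35. HOXA13, needed for the digits and the genital tract, had a fold of 9.72 [6.18 to 14.6] from 21 fragments over 1.26. HOXD13, a gene of the digits, had a fold of 6.75 [3.97 to 10.9] from 15 fragments over 1.37. Of the 4 genes of group 13, 3 were called. The exception was HOXB13, known from the prostate, whose start site lay 50138 bp from the nearest new peak, farther than that of any other member. Its promoter held 81 CpGs, where those of HOXC13, HOXA13 and HOXD13 held 148, 196 and 171.

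HOXB9 had a fold of 8.68 [5.99 to 12.2] from 31 fragments over 2.69, and a second peak with a fold of 7.49. HOXC9, which sets the thoracic identity of motor neurons, had a fold of 5.80 [4.04 to 8.07] from 33 fragments over 4.86. HOXA11 and HOXD11 act together in the forearm. HOXD11 had a fold of 5.79 [3.21 to 9.78] from 12 fragments over 1.25, and HOXA11 a fold of 4.11 [2.72 to 6.0] from 25 fragments over 5.32. HOXA11 thus had more fragments but a lower fold, over a higher background, and the intervals of the folds overlapped. None of the 3 genes of group 10 and neither of the 2 genes of group 12 had a new peak at the promoter, and HOXA9, HOXD9 and HOXC11 had none either. With 2 to 4 genes per paralogue group, these counts only describe which genes were called.

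**Figure D1:**
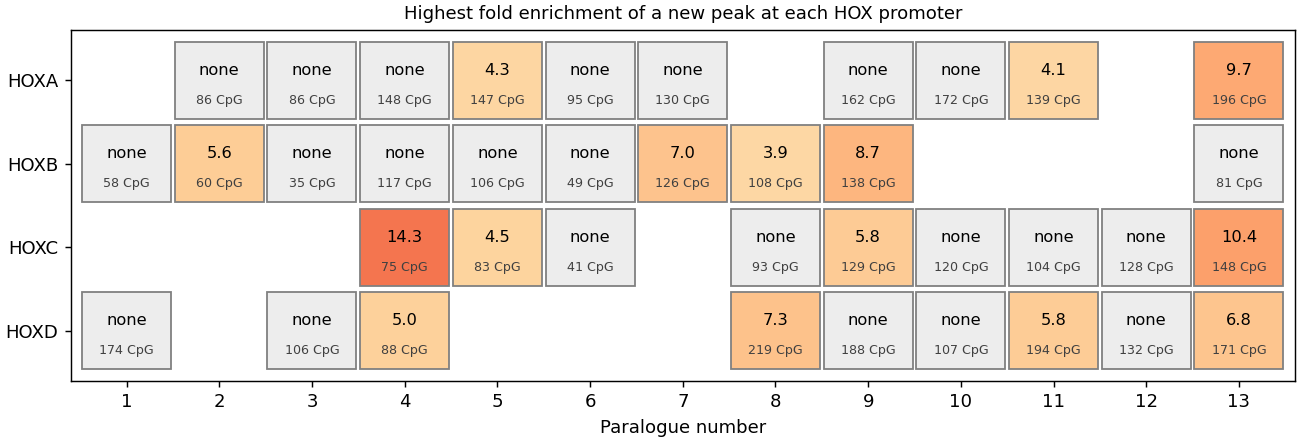
Highest fold enrichment of a new peak at each of the 38 HOX promoters, by cluster (vertical axis) and paralogue number (horizontal axis), with the number of CpGs within 1000 bp of the start site; "none" marks promoters without a new peak, darker cells have a higher fold, and blank positions hold no listed gene. HOXC4 has the highest fold, 14.3, and groups 1, 3, 6, 10 and 12 have no called promoter.

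By cluster, a new peak was found at 3 of 10 promoters in HOXA, 4 of 10 in HOXB, 4 of 9 in HOXC and 4 of 9 in HOXD. The share over all protein-coding promoters was 41.6%. HOXB7 and HOXB8 share a CpG island, no peak was shared by promoters of the listed genes, and the members of a cluster lie close together, so they were not treated as independent. In the HOXA cluster the called promoters were HOXA5, HOXA11 and HOXA13. In the HOXB cluster HOXB7, HOXB8 and HOXB9 stood side by side, with HOXB2 apart from them. In the HOXC cluster both ends, HOXC13 and HOXC4, had the highest folds, with HOXC9 and HOXC5 between them. In the HOXD cluster HOXD13, HOXD11, HOXD8 and HOXD4 were called. By canonical start sites, at least 1 member without a peak lay between neighbours in this order, except between HOXD8 and HOXD4. No listed gene has its canonical start site between those genes.

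**Figure D2:**
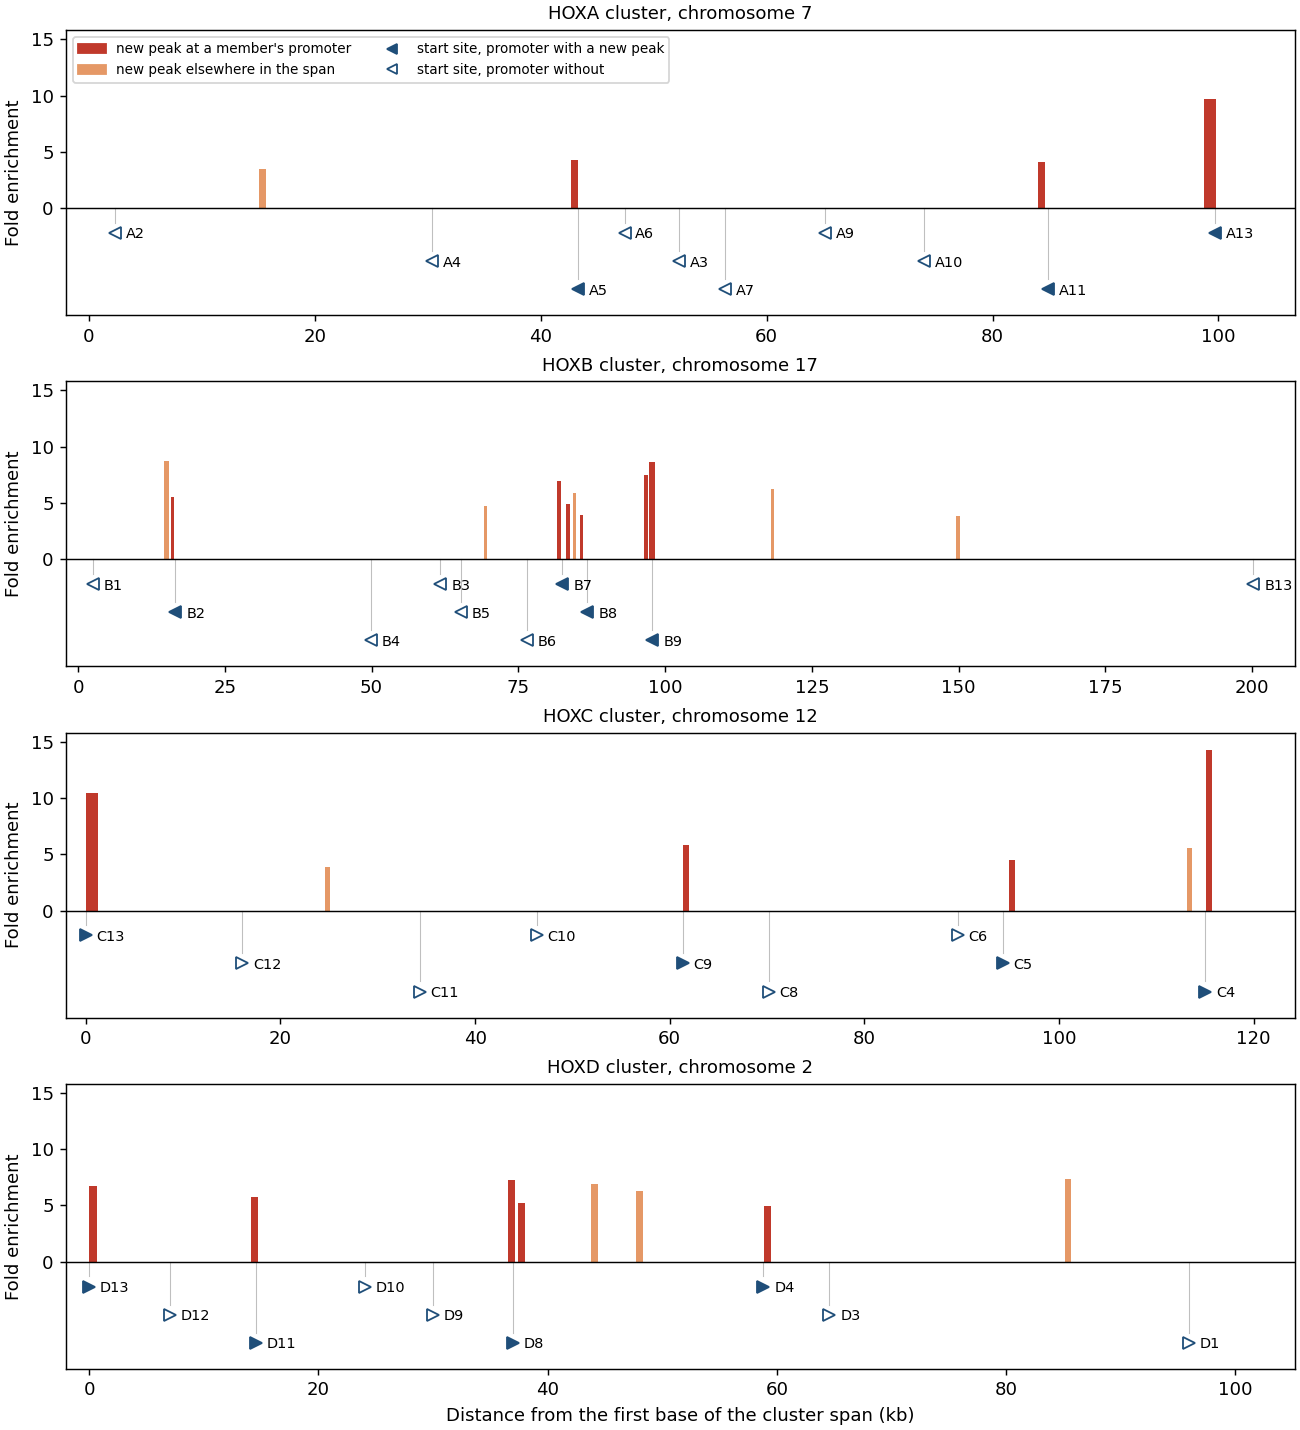
New peaks along the 4 cluster spans. The horizontal axis is the distance from the first base of the span in kb and the vertical axis the fold enrichment of each peak (bars, with narrow peaks widened for visibility), with start sites below the line pointing in the direction of transcription, filled where the promoter has a new peak. The HOXA span has 4 peaks, HOXB 11, HOXC 6 and HOXD 8, with long stretches free of peaks in each.

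The number of CpGs near the start site was compared with the share of called promoters. Over all protein-coding genes that share rose steeply, from 0.943% of promoters with fewer than 50 CpGs to 28.9% with 50 to 99, 65.6% with 100 to 149, 78.8% with 150 to 199 and 78.8% with 200 or more. Over the HOX promoters it was 0 of 3, 4 of 10 (40%), 7 of 17 (41.2%), 3 of 7 (42.9%) and 1 of 1 in the same classes. Between 50 and 199 CpGs the HOX share thus lay near 40% in each class where that of all genes rose. With 10, 17 and 7 HOX promoters in these classes, a level share cannot be told from a rising one. The median number of CpGs was 138 at the 15 HOX promoters with a new peak and 106 at the 23 without. For all protein-coding promoters the medians were 130 and 63. The 4 promoters without a peak in the class of 150 to 199 CpGs were HOXD9 with 188, HOXD1 with 174, HOXA10 with 172 and HOXA9 with 162. In contrast, HOXB2 with 60 CpGs and HOXC4 with 75 were called. Among promoters that overlap a CpG island, 14 of 33 HOX promoters were called (42.4%), beside 57.5% of all such protein-coding promoters.

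The folds at HOX promoters were low within the list. The median of the highest-fold peak was 5.80 over the 15 called HOX promoters and 8.26 over all 8386 called protein-coding promoters. The number of fragments was not lower: the median at the summit was 25 for the HOX promoters and 17 for all called promoters. The median background rate was 2.60 fragments for the HOX promoters and 0.720 for all. The genome-wide rate was the background at 1 of the 15 HOX promoters (6.67%) and at 34.8% of all called promoters. Whether the local background reflects methylation in untreated cells was not tested. When only peaks with at least the median fold of the list (7.45) were counted, 4 HOX promoters remained, HOXC4, HOXC13, HOXA13 and HOXB9. They are 10.5% of the 38, beside 25.6% of all protein-coding promoters.

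**Figure D3:**
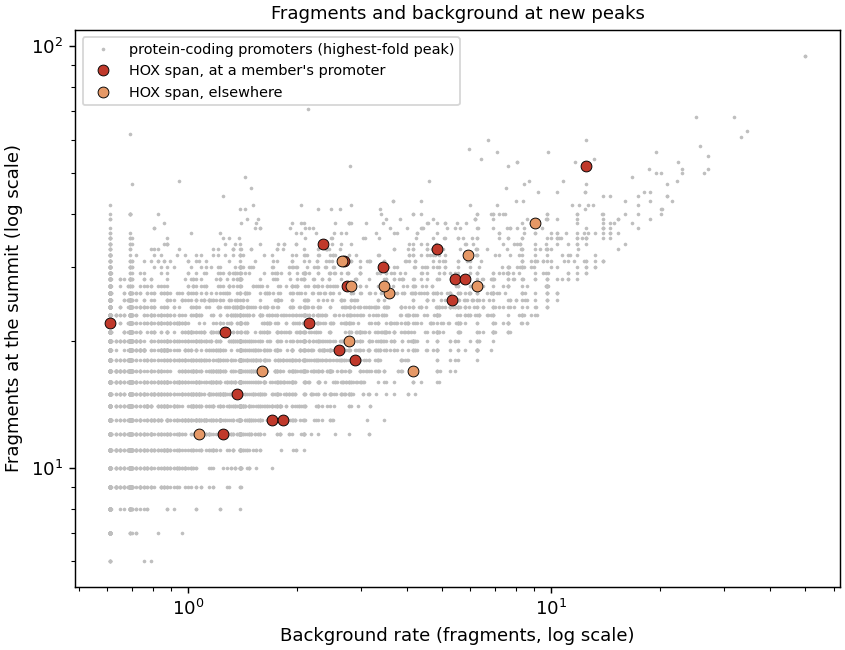
Fragments at the summit (vertical axis, log scale) against the background rate in fragments (horizontal axis, log scale) for the highest-fold peak of all called protein-coding promoters (grey) and the 29 peaks of the HOX spans (red at a HOX promoter, orange elsewhere). Of the 29 peaks, 1 stands at the genome-wide rate of 0.611 on the left edge, and their median lies at 26 fragments over a rate of 2.78.

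The position of the peaks relative to the start site was then examined. The summit lay downstream of the start site at 14 of the 15 called HOX promoters, beside 70.5% of all called protein-coding promoters. The median position was 387 bp downstream for the HOX promoters and 165 bp for all. HOXD11 and HOXD13 were nearest, at 130 and 138 bp, and HOXC5 and HOXB8 farthest, at 967 and 966 bp. HOXD8 was the exception, with its summit 173 bp upstream, and its second peak stood downstream in coding exon 1. A new peak covered the start site itself in 5 of the 15 genes, HOXA13, HOXB9, HOXD8, HOXD11 and HOXD13, beside 64.3% of all called promoters. The share of the promoter's CpGs under a peak ranged from 13.9% at HOXB8 to 85.5% at HOXB9, with a median of 43.9%.

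**Figure D4:**
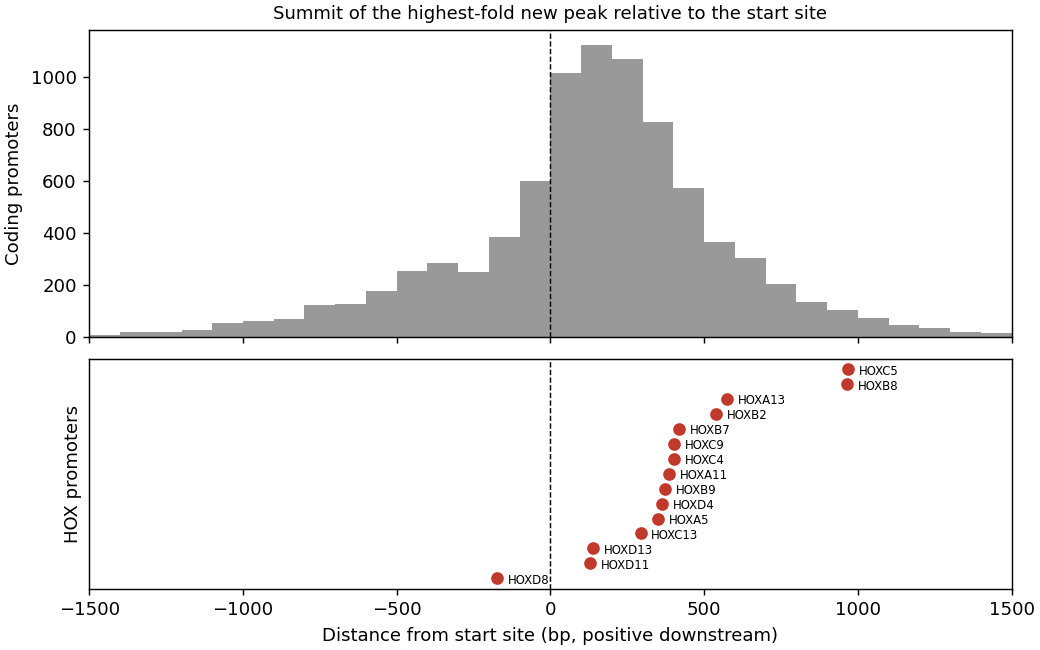
Distance of the summit of the highest-fold new peak from the start site (horizontal axis, bp, positive downstream) for all called protein-coding promoters (upper panel, number of promoters per 100 bp) and for the 15 HOX promoters (lower panel, 1 point per gene). All HOX points except HOXD8 lie to the right of the start site, with a median of 387 bp.

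The coding sequence of the called HOX genes begins close to the start site, at a median distance of 88 bp, against 267 bp for all called protein-coding genes. The comparison of summits in coding sequence was therefore repeated for genes whose coding sequence begins within 500 bp of the start site. There the summit lay in the gene's own coding sequence in 11 of 13 HOX genes (84.6%) and in 25% of all called protein-coding genes. Within the 500 bp the distance was not matched, and neither was the length of the coding exons, so the contrast may still depend on them. All 12 HOX summits in coding sequence stood in coding exon 1. Of the others, that of HOXC5 lay in an intron, that of HOXD13 in the untranslated part of exon 1 and that of HOXD8 upstream.

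The spans of the 4 clusters, 515350 bp in all from the first to the last base of the listed genes, held 29 new peaks, with a median fold of 5.80 (3.49 to 14.3). Of these, 6 had at least the median fold of the list. The density was 4.01 peaks per 100 kb in HOXA, 5.49 in HOXB, 5.12 in HOXC and 8.15 in HOXD, and 5.63 over the 4 spans, against 0.413 over the genome. CpG islands made up 16.6% of the spans and 0.985% of the genome, and 27 of the 29 peaks overlapped an island. Peaks and islands were both denser in the spans than over the genome.

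Counted per island, the HOX spans were not richer in peaks than the genome. A new peak was found at 22 of 115 islands (19.1%), beside 19.6% of all islands. None of the 6 islands with fewer than 20 CpGs had a peak, beside 0.779% of all such islands. With 20 to 49 CpGs there were 5 of 54 (9.26%), beside 4.94%, and with 50 to 99 CpGs 7 of 35 (20%), beside 38.1%. With 100 or more CpGs there were 10 of 20 (50%), beside 65.4%. In this island set the HOX share lay above the background for islands of 20 to 49 CpGs and below it for islands of 50 or more. The set was rebuilt without repeat masking and holds 50888 islands over the genome, 24925 of them with 20 to 49 CpGs. How masking would change the shares was not tested. With stricter criteria for an island (at least 500 bp, 55% GC and an observed to expected ratio of 0.65), 17 of 61 HOX islands had a new peak (27.9%), beside 50% of all such islands. Large islands without a new peak were those at HOXA9 with 201 CpGs, HOXA10 with 199, HOXD9 with 186, HOXC11 with 170 and HOXD1 with 157. The island that spans HOXB7 and HOXB8, of 4570 bp with 293 CpGs, held 4 separate peaks, more in number than any other island of the spans.

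Each span had a long stretch without a new peak. In HOXA it was 40942 bp between the peaks of HOXA5 and HOXA11, which holds the start sites of HOXA5 itself, HOXA6, HOXA3, HOXA7, HOXA9 and HOXA10 and 10 islands. In HOXB it was 52840 bp between the peaks of HOXB2 and HOXB6, with the start sites of HOXB2 itself, HOXB4, HOXB3 and HOXB5 and 11 islands. In HOXC it was 36447 bp between HOTAIR and the peak of HOXC9, with the start sites of HOXC11, HOXC10 and HOXC9 itself and 6 islands. In HOXD it was 25880 bp between the peak of HOXD4 and that of HAGLROS, with the start site of HOXD3 and 6 islands. The peaks of HOXA5, HOXB2 and HOXC9 lie downstream of their start sites, which is why those start sites fall in the stretches. For the 23 members without a new peak, the nearest one lay between 3841 bp (HOXB5) and 50138 bp (HOXB13) from the start site, with a median of 9097 bp.

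Of the 29 peaks, 18 lay at the promoter of a listed gene and 11 elsewhere in the spans, with median folds of 5.79 and 5.89. In HOXA the only peak elsewhere lay in an intron of HOXA3 and had a fold of 3.49 [2.11 to 5.46], the lowest of the spans. In HOXB the peak with the highest fold of the whole cluster lay elsewhere, in coding exon 2 of HOXB2, with a fold of 8.76 [6.04 to 12.3] from 31 fragments. Its nearest edge stood 1120 bp from the start site of HOXB2, just beyond the promoter window, while the peak of HOXB8, with its nearest edge at 842 bp, was just inside. The next in HOXB were exon 1 of the lncRNA LINC03057 with a fold of 6.25 and the 3′ untranslated part of HOXB8 with 5.89. In HOXC a peak upstream of HOXC4 had a fold of 5.56. A peak in exon 7 of HOTAIR, an lncRNA transcribed from the HOXC cluster, had a fold of 3.89 from 38 fragments over 9.02, and no island. In HOXD the peaks were exon 1 of HAGLROS with 7.35 [4.93 to 10.6], exon 1 of HOXD-AS2 with 6.93 and a site between HOXD8 and HOXD4 with 6.28. The remaining ones, in coding exon 3 of HOXB6 and in an intron of LINC02086, had folds of 4.77 and 3.86.

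Genes of other types in the spans were counted by their own start sites. Of 26 lncRNAs, 8 had a new peak within 1000 bp of the start site (30.8%), beside 14.2% of all lncRNAs. The share of all lncRNAs was not matched for CpG number, so the shares are not like for like. The windows of the 8 held between 84 (HAGLROS) and 140 CpGs (HOXA11-AS). Those of the other lncRNAs of the spans held between 19 (HOXB-AS2) and 168 (HAGLR). The 8 were HOXA11-AS, HOXB-AS1, LINC03057, LINC02086, HOXC13-AS, HOXC-AS1, HOXD-AS2 and HAGLROS. Many share their peak with a listed gene, as HOXC13-AS does with HOXC13 and HOXA11-AS with HOXA11, and a pulldown of double-stranded DNA cannot assign it to a strand. LINC03057 and LINC02086 shared 1 peak.

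The spans also hold 7 miRNA genes, of which 6 were found in the RefSeq table (GRCh38.p14). The hairpin of MIR615, in an intron of HOXC5 (chr12:54427734-54427829 in hg19), was the only one under a new peak, the peak of HOXC5 with a fold of 4.51. The 3 genes of the miR-196 family, which targets HOX transcripts, are shown beside it because they stand in 3 different clusters and share a seed, and none of their hairpins lay under a new peak. Capitals mark the seed, bases 2 to 8.
miR-615-3p: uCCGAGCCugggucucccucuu
miR-615-5p: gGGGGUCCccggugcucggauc
miR-196a-5p: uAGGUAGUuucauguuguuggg
miR-196b-5p: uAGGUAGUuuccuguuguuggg

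Genes of the wider HOX pathway were counted in the same way, from 5 lists, and are to be read beside the 41.6% of all protein-coding promoters with a new peak. Of the cofactors that bind DNA with HOX proteins, 4 of 9 had a new peak at the promoter (44.4%), with PBX3 (11.2) and MEIS1 (8.08) having the highest folds. Of the Polycomb genes, which encode the repressive complexes, 15 of 27 had one (55.6%), and the folds were highest at PCGF2 (16.0) and PCGF5 (15.5). Of the Trithorax genes, 6 of 9 had one (66.7%), led by PSIP1 (10.6) and ASH2L (8.87). Of the upstream regulators, 4 of 9 had one (44.4%), led by the retinoic acid receptor RARG (9.96) and its partner RXRA (8.34). Among promoters that overlap a CpG island, 4 of 7 cofactors, 15 of 27 Polycomb genes, 6 of 8 Trithorax genes and 4 of 7 upstream regulators were called. The share over all such protein-coding promoters was 57.5%. With at least 100 CpGs the counts were 4 of 7, 14 of 25, 5 of 7 and 2 of 4, beside 70.5%. The median folds of the called promoters were 6.87, 9.93, 8.50 and 8.01 in the order of these lists, beside 8.26 for all called protein-coding promoters and 5.80 for the HOX promoters.

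Developmental regulators of the homeobox and PAX families outside the clusters were the fifth list. A new peak was found at 32 of 69 promoters (46.4%), beside 41.6% of all protein-coding promoters, and at 30 of 58 with at least 100 CpGs (51.7%), beside 70.5%. The median fold was 5.01 and the median background rate 3.85, so their folds were low and their backgrounds high, as at the HOX promoters. SIX4, a homeobox gene of this list, had a fold of 11.2. The summit was in the gene's own coding sequence at 9 of the 32 promoters, where the HOX genes had 12 of 15, beside 16.5% of all called protein-coding promoters. A new peak covered the start site at 12 of the 32, where the HOX genes had 5 of 15, beside 64.3%. The share with a covered start site thus lay below that of all called promoters in both lists. None of these comparisons was tested.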

How the data were processed

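MBD-seq was performed on 4 libraries, and the new-peak list of wild-type Ab-3A3L cells was used. The submitters' processing notes name FastQC, Bowtie2, deepTools and MACS2 with hg19 (GRCh37), and per the methods Bowtie2 was run under default settings. The settings of the peak caller are not given in the sources used here. The fold in the deposited list is a ratio of the pileup at a peak's summit to its expected background. The −log10 columns deposited beside it belong to a p-value and a q-value, and the lowest −log10 q was 2.00. The deposited score follows from the q-value and was not used. The deposited summit offset gives the summit position. The list holds no total read count, and the methods give only an average read number over the samples, so the depth of this library was not used.

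Fragments (k) and background rate were solved for every peak from 2 relations, fold = (k + 1)/(rate + 1) and p = the Poisson chance of exceeding k. Peaks on assembled chromosomes numbered 12795. Start sites came from GENCODE 44 lifted to hg19, and 282 of 20163 protein-coding genes without a canonical transcript entered with their 5′ end. CpG islands were rebuilt without repeat masking, with a score of 17 for a CpG and -1 for any other base (at least 200 bp, 50% GC and a ratio of 0.6). No p-value was computed. All members were accounted for. Values were given for each called member, for the 3 highest-fold peaks outside promoters in each cluster and for the 2 highest-fold genes of each list, of which 1 is not reported here; the remaining peaks outside promoters and the islands named were chosen after their values were seen. The members and the lists were chosen with earlier results of these data known. The comparisons of coding sequence, of large promoters and of summit positions were also added after the values were seen. The steps were tested on simulated data. Python 3.11.15, pandas 2.3.3 and numpy 2.4.6 were used, with matplotlib 3.10.9 for plots, scipy 1.17.1 for intervals and numba 0.67.0 for islands.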

Additional observations from a re-analysis of the deposited data

How the results depend on the processing

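The threshold on the peaks had the strongest effect. With peaks of at least the median fold, 4 HOX promoters were called instead of 15 (10.5%, beside 25.6% of all protein-coding promoters). Then 6 peaks were counted in the spans instead of 29, 1 outside the promoters instead of 11, and 5 islands instead of 22. With a −log10 q of at least 10, the numbers were 8 HOX promoters (21.1%, beside 24.6% of all protein-coding promoters), 14 peaks in the spans and 5 outside the promoters. With the start sites of any transcript, 7 peaks were outside the promoters. When the median fold at HOX promoters was replaced by the fragments less the background rate, the median was 20.6 fragments, against 15.9 for all peaks, so the order of the HOX peaks and the whole list turned. The cause was not tested. The other 10 of 19 alternatives changed the counts by less than 1.5 times. Promoters of 500 bp called 13 HOX genes (34.2%), without HOXB8 and HOXC5, beside 39.9% of all protein-coding promoters. Start sites of any transcript called 17 (44.7%), with HOXB6 and HOXD3 in addition, beside 45.0%. The stricter island criteria were among these 10 by count, with 17 islands instead of 22. Their shares moved, however, from 19.1% beside 19.6% of all islands to 27.9% beside 50%. For single clusters and the other gene lists, 53 of 63 alternatives gave counts within 1.5 times. No paired analysis was possible because each condition has a single library, and for the same reason no replicate could be left out. Precision is limited by the fragments at the summits, a median of 26 in the HOX spans.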
